A study of Mus musculus with 2 samples.

Results

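The genes described here carry the interferon signal from the cell surface to the response genes: receptors, janus kinases, Stat and Irf transcription factors, interferon response genes and Socs inhibitors. They are 58 genes chosen by symbol, of which 55 had at least 1 probe set annotated to them alone, among 18193 genes with a probe set on the array. The 55 genes were represented by 100 probe sets. Isg15, Oas1g and Ifi44 had no probe set of their own. RNA of the mouse epithelial cell lines Mlesico and Mle29c was hybridised to 1 expression array per line. Both lines were kept in the same serum-containing medium, and no treatment, interferon included, is listed. The series title concerns miR-29c in lung fibrosis. How the lines were made, in which direction Mle29c differs in miR-29c, and whether each line is a single clone are not stated in the labels.

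Interferons alpha and beta (type I) bind a receptor made of Ifnar1 and Ifnar2, and interferon gamma (type II) binds Ifngr1 and Ifngr2. The receptors signal through the janus kinases Jak1, Jak2 and Tyk2, which phosphorylate Stat proteins. Type I signalling acts mainly through a complex that contains Stat2 and Irf9 and binds the interferon-stimulated response element (ISRE), while gamma signalling acts mainly through Stat dimers at the gamma-activated site (GAS). Epithelial cells of the lung can make and answer interferons during virus infection, and many response genes also have a basal level that depends on weak tonic signalling.

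Each line was hybridised once. Nothing can be tested across replicates, p-values are absent, and each difference below describes these 2 arrays alone. A difference is the log2 ratio of Mle29c over Mlesico. The deposited values of a probe set are mirror images around 0, equal in size and opposite in sign, and levels cannot be compared between genes. The rounding of the deposited numbers still gave a coarse signal class: high (mean signal of 256 or more), middle (16 to 256) or low. The class was settled for some probe sets and only likely for others. A probe set in the high or middle class was counted as measured, and a gene's value is the median over its measured probe sets. Of the 100 probe sets, 91 were measured, 43 of them with a settled class (23 high, 20 middle). In all, 51 of 55 genes were measured. Between measured probe sets of the same gene, log2 ratios had a pooled SD of 0.62 over 6844 genes and of 0.29 over the 25 genes described here that have 2 or more. This SD leaves out differences between cultures, and probe sets for different transcripts of a gene add to it.

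The promoter letters help to place the response genes. The stretches below are shown for response genes past 2-fold, apart from Usp18, and for a relative of each that also has an ISRE match. Not every relative has one: no ISRE match was found for Ifit2 or Ifitm1, which are not shown. Promoter windows of 300 bases (250 before the annotated start of the transcript and 50 from it on) came from RefSeq, build GRCm38.p6, and were found for 49 of the 58 genes; Usp18 was not among them. The ISRE was searched as GAAA, any 2 bases and GAAA, and the GAS as TTCNNNGAA, each on both strands; the patterns can overlap each other and themselves. Each stretch reads 5′ to 3′ on the strand of its gene. Capitals mark ISRE matches, which read as TTTC blocks where the match lies on the other strand.
Ifit1, chr19:34640770-34640829, plus strand: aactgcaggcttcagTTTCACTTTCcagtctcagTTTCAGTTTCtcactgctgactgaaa
Ifit3, chr19:34583365-34583424, plus strand: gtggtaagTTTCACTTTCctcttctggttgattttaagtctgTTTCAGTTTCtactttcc
Ifitm2, chr7:140955973-140956032, minus strand: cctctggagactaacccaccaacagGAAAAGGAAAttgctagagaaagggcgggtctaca
Ifitm3, chr7:141010716-141010743, minus strand: gGAAAAGGAAActtctgaGAAACCGAAA
Gbp2, chr3:142620579-142620638, plus strand: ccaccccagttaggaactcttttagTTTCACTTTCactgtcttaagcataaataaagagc
Gbp3, chr3:142559977-142560036, plus strand: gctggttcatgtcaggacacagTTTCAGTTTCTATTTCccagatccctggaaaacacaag
Oas1a, chr5:120907526-120907585, minus strand: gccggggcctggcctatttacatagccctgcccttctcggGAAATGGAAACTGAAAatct
Oas3, chr5:120777700-120777759, minus strand: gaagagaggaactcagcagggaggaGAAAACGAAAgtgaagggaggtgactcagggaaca

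In these stretches Ifit1 and Ifit3 carry the same pair of matched 10-base strings, and Ifitm2 and the first Ifitm3 match are identical in letters. The Ifit1 matches begin 104 and 85 bases before the start and the Ifit3 matches 156 and 122 bases before it. The Ifitm3 matches begin 2 and 19 bases after the start. For the GAS, capitals mark the match in Irf1 and Socs3, both known as targets of Stat dimers.
Irf1, chr11:53769899-53769958, plus strand: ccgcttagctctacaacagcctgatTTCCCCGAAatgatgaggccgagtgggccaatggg
Socs3, chr11:117969486-117969545, minus strand: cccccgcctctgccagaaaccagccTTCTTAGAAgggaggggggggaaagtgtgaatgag

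An ISRE match was present in 19 of the 49 genes (38.8%), against 3.99% of the 27025 genes of the promoter table. By role it was found in 13 of 24 type I response genes (54.2%), in both Gbp2 and Gbp3, and in 3 of 21 receptors and signalling factors (14.3%). A GAS match was present in 14 of the 49 (28.6%), against 9.55% of all genes, and 5 genes had both. By role the GAS was found in 8 of 24 type I response genes (33.3%) and in 5 of 21 receptors and signalling factors (23.8%). Neither Gbp2 nor Gbp3 had a GAS match. A match is a run of letters and not a measured site. Some genes with the same matched letters had ratios of opposite sign, with Ifit1 at -0.42 and Ifit3 at 1.59, and Ifitm2 at 0.51 and Ifitm3 at -2.44. Gbp2, at -1.48, and Gbp3, at -0.39, each share a matched string with both Ifit1 and Ifit3, so with a gene of either sign. The Gbp3 string is also found in Stat2, at 0.39. Read on the other strand, it occurs among measured genes in Oas1a, at 0.31, and Bst2, at -0.47. Oas3 at -1.07 and Eif2ak2 at -0.52 share a string and the sign. Among measured type I response genes, the 11 with an ISRE match had a median log2 ratio of -0.47 (8 below 0) and the 10 with a promoter window but no match had one of 0.11 (5 below 0). The ranges overlapped, from -2.44 to 1.59 and from -0.92 to 0.90, and the difference was not tested.

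Receptors and signalling factors lay close to 0, type I response genes spread in both directions, and genes of the gamma response lay mostly below 0. Of the 51 measured genes, 1 (Ifit3) was at least 2-fold higher in Mle29c and 4 (Ifitm3, Gbp2, Usp18 and Oas3) were at least 2-fold lower; these are 1.96% and 7.84% of the 51, while among all 14780 measured genes the shares were 8.46% higher and 7.25% lower. The median log2 ratio was -0.08 for the 51 genes and 0.01 for all measured genes. The genes just inside the 2-fold threshold were Oas3 at -1.07 and Usp18 at -1.27, and those just outside were Ifi35 at -0.92, Ifit2 at 0.90 and Ifih1 at -0.88. At 1.5-fold, 2 of the 51 (3.92%) were higher and 7 (13.7%) lower, beside 16.7% and 15.3% of all measured genes. At 4-fold 0 were higher and 1 lower, beside 2.68% and 2.32%. On the lower side the shares were near those of the whole array, and on the higher side they were smaller at 2-fold and at 1.5-fold. The difference was not tested.

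**Figure D1:**
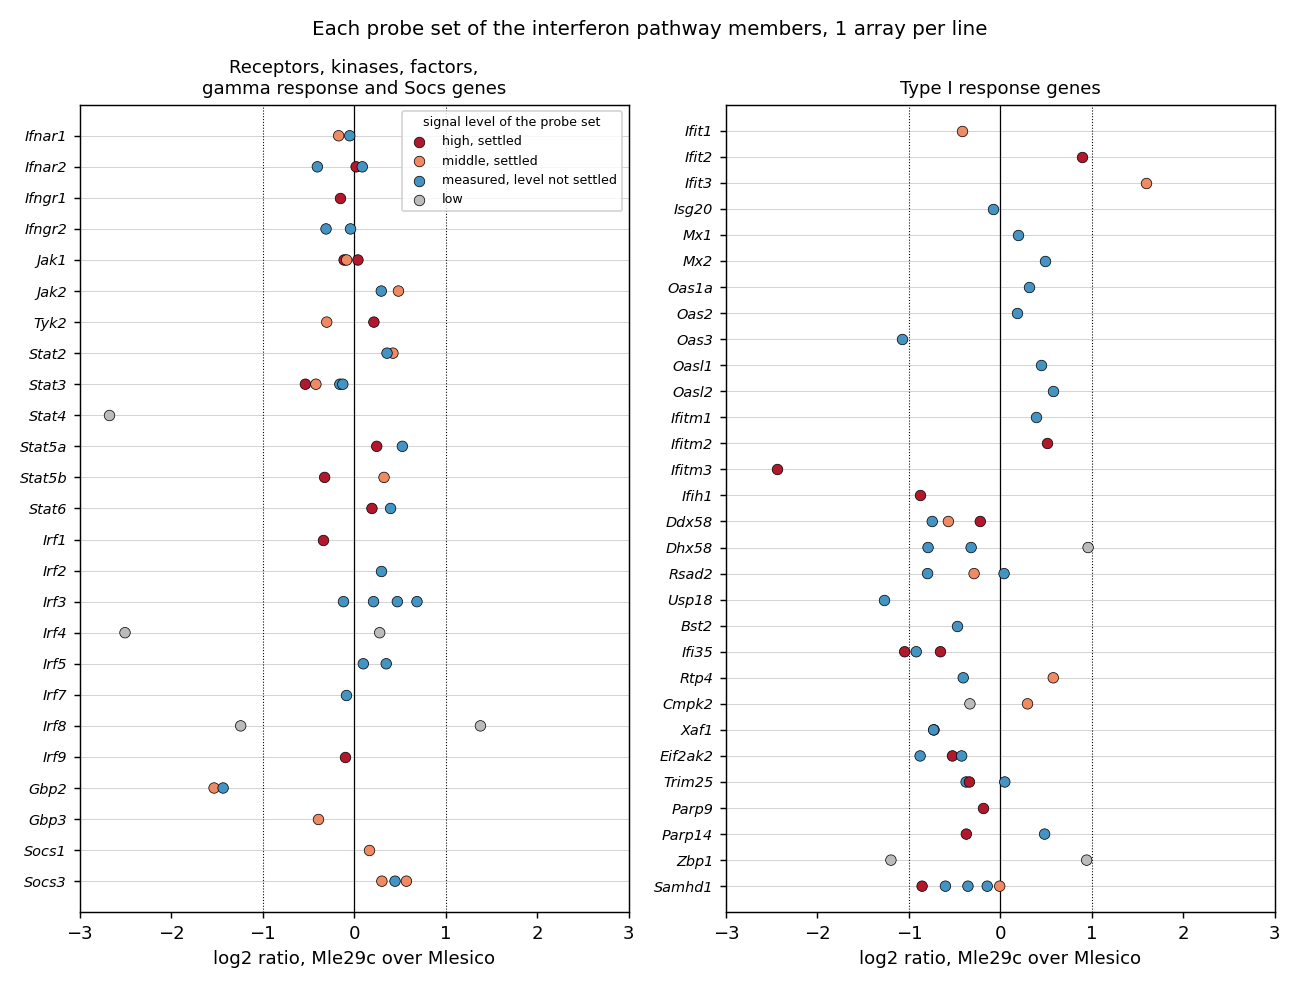
Log2 ratio (Mle29c over Mlesico, horizontal axis) of each of the 100 probe sets, 1 row per gene, coloured by signal class; solid lines mark 0 and dotted lines 2-fold. Receptors and factors sit near 0 except for low-class probe sets of Stat4, Irf4 and Irf8, while Ifitm3 stands apart at -2.44 and Ifit3 at 1.59.

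The 4 receptor genes were all measured and lay between -0.17 and 0.02. Ifnar1, a chain of the type I receptor, had a log2 ratio of -0.11, with probe sets at -0.17 and -0.05. Ifnar2, its partner chain, stood at 0.02, with probe sets from -0.40 to 0.09. Ifngr1, the ligand-binding chain of the gamma receptor, stood at -0.16 from a single probe set with a settled high class, and Ifngr2, the accessory chain, at -0.17. None of these values exceeded the 0.62 SD between probe sets.

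The janus kinases were between -0.08 and 0.39. Jak1, which serves both receptor types, had 3 probe sets with settled classes at -0.11, -0.08 and 0.04. Jak2, a kinase of the gamma receptor, was at 0.39 (0.30 and 0.48), and Tyk2, a kinase of the type I receptor, was at -0.04, with probe sets on both sides of 0 at 0.22 and -0.30.

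The 5 measured Stat genes had a median of 0.30, with 4 above 0 (80%, beside 50.3% of all measured genes). None was past 1.5-fold, beside 16.7% higher and 15.3% lower among all measured genes. Stat2, the partner of Irf9 in the type I complex, was at 0.39, with probe sets at 0.36 and 0.42. Stat5a, which answers prolactin and many cytokines, was at 0.39 (0.25 and 0.53), and its close relative Stat5b at 0.00, with probe sets at 0.33 and -0.32. Stat6, a factor of interleukin 4 signalling, stood at 0.30. Stat3, a factor of interleukin 6 signalling, was the lowest at -0.29, with all 4 probe sets below 0, from -0.53 to -0.12. Stat4, known mainly from lymphoid cells, had 1 probe set, in the low class, at -2.68 (1.34 in Mlesico and -1.34 in Mle29c). Among all single-gene probe sets of the low class, 56.1% were past 2-fold, so a difference of 2-fold there was common.

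Of the 8 Irf genes 6 were measured, with a median of 0.07. All 6 were within 1.5-fold, while 16.7% of all measured genes were at least 1.5-fold higher and 15.3% lower. Irf1, an activator induced by gamma interferon, was the lowest at -0.34 from 1 probe set of settled high class, and Irf9, the DNA-binding part of the type I complex, was at -0.10, also settled high. Irf3, which starts the transcription of interferon genes after virus sensing, was the highest at 0.34, with 4 probe sets from -0.12 to 0.69. Irf7, its inducible relative, stood at -0.09, Irf5, a factor of Toll-like receptor signalling, at 0.23 and Irf2, an antagonist of Irf1, at 0.29. Irf4 and Irf8, factors of blood cells, had only low-class probe sets, at -2.51 and 0.28 and at 1.38 and -1.24. The members of each pair lay on opposite sides of 0.

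The type I response genes had a median of -0.19 over 29 measured genes, with 16 below 0 (55.2%, beside 49.7% of all measured genes). At least 2-fold differences were seen in 4 of the 29, of which 1 was higher (3.45%, beside 8.46% of all measured genes) and 3 were lower (10.3%, beside 7.25%). Every one of these 4 genes rests on a single probe set.

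The Ifitm genes encode small membrane proteins that restrict the entry of viruses, and they neighbour each other on chromosome 7. Ifitm3 had the largest difference of all the genes described, with a centred log2 value of 1.22 in Mlesico and -1.22 in Mle29c, a log2 ratio of -2.44 or 5.43-fold lower in Mle29c. Its class was settled as high, so its log2 signal lay at 9.22 or more in Mlesico and between 6.78 and 14.8 in Mle29c. Of all 6265 single-gene probe sets settled as high, 2.47% were at least 2-fold lower. Its neighbours did not share the direction: Ifitm2, also settled as high, was at 0.51 and Ifitm1 at 0.39. These genes are close relatives in sequence, and the probe letters, which would show how far each probe set is specific, were not used here.

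The Ifit genes encode proteins that bind foreign RNA and form a cluster on chromosome 19. Ifit3 had centred values of -0.80 in Mlesico and 0.80 in Mle29c, a log2 ratio of 1.59 or 3.02-fold higher in Mle29c. It was settled in the middle class, in which 10.4% of single-gene probe sets were at least 2-fold higher. Ifit2 was at 0.90 with a settled high class, where 2.91% were 2-fold higher, so it fell short of 2-fold in a class where large differences were rare. Ifit1 was at -0.42. The 3 neighbours thus went in both directions. Ifit3 also has a near-identical gene copy beside it in mouse, from which its signal may not be separable.

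The Oas genes encode enzymes that make 2-5A, the activator of RNase L, and relatives of these enzymes, and lie on chromosome 5. Oas3, which encodes the longest of these enzymes, had centred values of 0.54 in Mlesico and -0.54 in Mle29c, a log2 ratio of -1.07. The other 4 measured genes of the family were above 0, with Oas2 at 0.18, Oas1a at 0.31, Oasl1 at 0.44 and Oasl2 at 0.57. None of the 5 had a settled class. Among probe sets measured without a settled class, 8.31% were at least 2-fold lower.

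Usp18 removes Isg15 from proteins and is a feedback inhibitor at the type I receptor. It had centred values of 0.64 in Mlesico and -0.64 in Mle29c, a log2 ratio of -1.27 from 1 probe set without a settled class. The only probe set that lists Isg15 also lists the gene Gm9706; it stood at -0.96 and is not counted among the genes described.

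The cytoplasmic sensors of viral RNA were all lower in value, though none reached 2-fold. Ifih1, the sensor of long double-stranded RNA, was at -0.88 from a probe set settled as high (0.44 in Mlesico and -0.44 in Mle29c). Ddx58, the sensor known as RIG-I, stood at -0.57, and all 3 of its probe sets lay below 0, from -0.74 to -0.22. Dhx58, a regulator of both, was at -0.55 with measured probe sets at -0.79 and -0.32, but another probe set, in the low class, was at 0.96.

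Several other antiviral genes had all their measured probe sets on the same side of 0. Ifi35, an interferon-induced protein, was at -0.92 with probe sets at -1.05, -0.92 and -0.65, of which the first and last were settled as high. Xaf1, an antagonist of an apoptosis inhibitor, was at -0.73 in both probe sets. Eif2ak2, which encodes the kinase PKR that stops translation, was at -0.52 (-0.88 to -0.42). Samhd1, which depletes deoxynucleotides, was at -0.35 in 5 probe sets from -0.86 to -0.01. Over all 25 genes with 2 or more measured probe sets, 16 (64%) had them on 1 side of 0, 10 below and 6 above; the share over all such genes of the array was 56.7%.

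The remaining type I response genes lay between -0.47 and 0.49. Bst2, which tethers budding virus to the cell, was at -0.47 and Trim25, a ubiquitin ligase that activates RIG-I, at -0.34 with probe sets from -0.37 to 0.05. Rsad2, which encodes the antiviral enzyme viperin, was at -0.29 with probe sets from -0.80 to 0.04, and Parp9, a partner of a ubiquitin ligase, at -0.19. Isg20, an RNA exonuclease, was at -0.08, Parp14 at 0.06 (0.48 and -0.37) and Rtp4 at 0.09 (0.58 and -0.41). The dynamin-like GTPase genes Mx1 and Mx2 were at 0.19 and 0.49, and Cmpk2, a mitochondrial nucleotide kinase gene next to Rsad2, was at 0.30. Zbp1, a sensor of Z-form nucleic acid, had low-class probe sets only, at 0.94 and -1.20.

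Type I response genes whose signal was settled as high were mostly below 0. They had 12 probe sets settled as high, from 11 genes, and 10 of the 12 were below 0, beside 51.6% of all single-gene probe sets settled as high. The gene median was then -0.37. This split was looked at after the values were seen.

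The gamma response was represented by Gbp2 and Gbp3, which encode guanylate-binding GTPases that attack intracellular pathogens. Gbp2 had centred values of 0.77 and 0.72 in Mlesico in its 2 probe sets and the mirror values in Mle29c, log2 ratios of -1.53 and -1.43, with a gene value of -1.48 or 2.79-fold lower. The probe set at -1.53 was settled in the middle class, in which 10% of single-gene probe sets were at least 2-fold lower. Gbp3, its neighbour on chromosome 3, was at -0.39 from 1 probe set. With 2 genes, the median of -0.94 describes little more than Gbp2; with Irf1 and Socs1 added as further gamma targets it was -0.37.

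A wider list of gamma response genes outside the 58 had 14 measured genes, of which 13 lay below 0 (92.9%, beside 49.7% of all measured genes), with a median of -0.59. Like the 58 genes, the list was chosen with earlier results of these data known. Some of the 13 lay close to 0, with Cxcl9 at -0.03 and Batf2 at -0.06. Set against the median of its own chromosome, each of 12 genes was below 0. At least 2-fold lower were 3 of the 14 (21.4%, beside 7.25% of all measured genes), and 0 were 2-fold higher (beside 8.46%). Irgm2, an immunity-related GTPase, was at -2.21 from 1 probe set, Iigp1, another of them, at -1.39 with probe sets at -1.40 and -1.39, and Gbp7 at -1.16 with probe sets at -1.34 and -0.97. Nlrc5, a regulator of MHC class I genes, was the only one above 0, at 0.47. The 9 measured genes of the guanylate-binding and immunity-related GTPase families, Gbp2 and Gbp3 included, all had values below 0, with a median of -0.86. This grouping was made after their values were seen. Gbp6, at -0.57, had measured probe sets at -1.23 and 0.10. Irgm1, at -0.22, was at 0.02 against its chromosome median. Gbp8, of the same families, was not measured, and its probe set was at 0.19. Without the genes on chromosome 11, 9 of the remaining 10 genes of the wider list lay below 0, with a median of -0.59. Families of such GTPases hold close copies, and shared signal between them was not tested.

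A wider list of type I response genes had 32 measured genes with a median of -0.08, of which 2 were at least 2-fold higher and 2 lower (6.25% each, beside the same 8.46% and 7.25%). Ifi27l2a, a small interferon-induced gene, was at 1.24 and Ifi44l at 1.25, and Trim30a was at -1.15 with probe sets at -1.23 and -1.07. Slfn8, a schlafen gene, was at -5.33 from 1 probe set without a settled class.

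**Figure D2:**
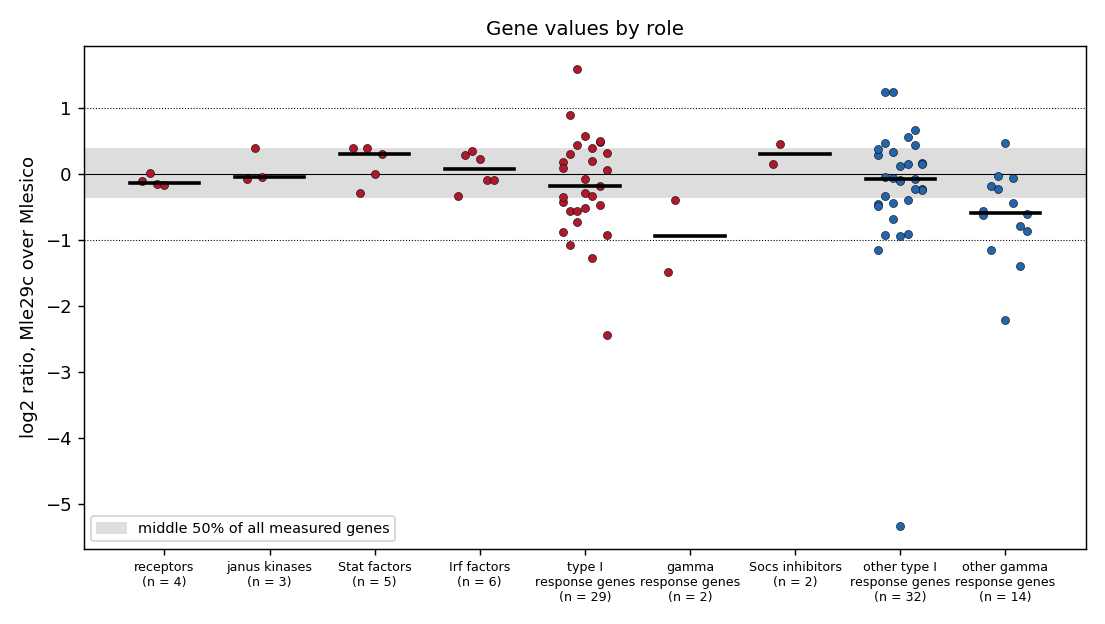
Gene values (log2 ratio, Mle29c over Mlesico, vertical axis) by role; red points are the genes described here, blue points the wider lists, black bars the medians, and the grey band the middle 50% of all 14780 measured genes. Receptors and factors keep within 0.40 of 0, type I response genes spread on both sides, and 13 of 14 further gamma response genes lie below 0.

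The Socs genes encode feedback inhibitors that are themselves induced by cytokine signalling. Socs1, the main inhibitor of gamma signalling, was at 0.16 from 1 probe set. Socs3, an inhibitor of interleukin 6 signalling, was at 0.45 with all 3 probe sets above 0, from 0.30 to 0.57. Both were above 0 while the gamma response genes were mostly below it. Among 16 other inhibitors of the pathway no gene value was past 2-fold, beside 8.46% higher and 7.25% lower of all measured genes. The values ran from Pias2 at -0.77 to Cish at 0.92, with a median of -0.02. Single probe sets were past 2-fold: the lowest of Pias2 was at -1.08. Socs2, with a gene value of -0.50, had 4 measured probe sets that disagreed widely, from -1.36 to 4.31.

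Upstream of the receptors, the interferon genes Ifnb1, Ifng and Ifna4 had low-class probe sets only. The other receptor chains were within 2-fold, with Ifnlr1, of the lambda interferon receptor, at -0.28 and Il10rb, its partner, at 0.47. Of 9 measured virus sensors and adaptors 7 were within 2-fold, and their lowest was the DNA sensor gene Aim2 at -0.52. At least 2-fold higher were 2 (22.2%, beside 8.46% of all measured genes), and 0 were 2-fold lower (beside 7.25%). Tlr9, an endosomal DNA receptor, was at 1.48, and Tlr7, an endosomal RNA receptor, at 2.79 from 1 measured probe set, with low-class probe sets at -3.48 and -0.30.

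Ratios on these arrays differed between chromosomes, and some genes described here share one. Chromosome 11 had a median log2 ratio of -0.25 over 1206 measured genes and held 9 of the 51, with a median of -0.34. Its 4 type I response genes, Dhx58, Ifi35, Xaf1 and Trim25, were all below 0. Without chromosome 11 the type I response genes had a median of 0.06, with 12 of 25 below 0. Of the 29 measured type I genes 16 were below 0, and leaving out any 4 of those 16 would also bring the median above 0. The change of sign therefore follows from these counts alone, and a part of chromosome 11 in it was not tested. With each gene set against the median of its own chromosome, the type I median was -0.10, with 16 below 0, and the median of all 51 was -0.04. Chromosome 19, which holds the Ifit cluster and Jak2, had a median of 0.27 over 521 genes, and Ifit3 stood at 1.33 relative to it. The 5 genes past 2-fold stayed past 2-fold after this step, and none of them is on chromosome 11. The share of each gene's ratio that goes with its chromosome was not tested.

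**Figure D3:**
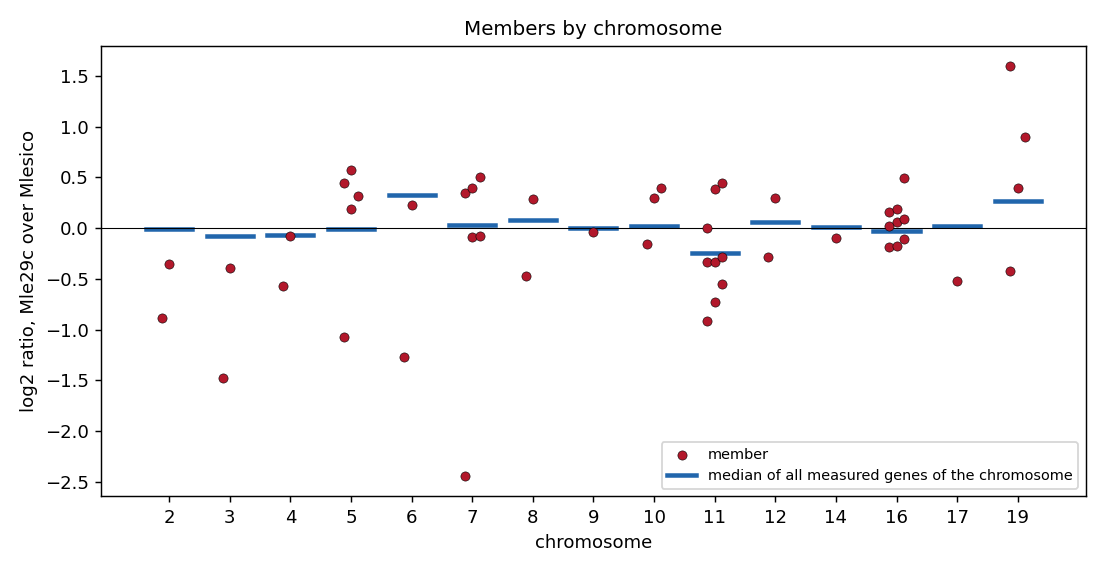
Log2 ratio (Mle29c over Mlesico, vertical axis) of each measured gene by chromosome, with a blue bar at the median of all measured genes of that chromosome. On chromosome 11 the bar lies at -0.25 and 6 of 9 genes lie below 0; Ifitm3 on chromosome 7 and Ifit3 on chromosome 19 lie far from their bars.

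Markers of cell types were set beside these values. All 15 lung epithelial markers were measured, with a median of 0.35 and 10 above 0 (66.7%, beside 50.3% of all measured genes). At least 2-fold higher were 5 (33.3%, beside 8.46%), and 1 was at least 2-fold lower (6.67%, beside 7.25%). Among them were Cdh1, which encodes E-cadherin, at 1.46, Epcam at -0.52 and the surfactant gene Sftpc at 1.66. Of 14 immune cell markers with a probe set 11 were measured, from -2.66 to 2.88, while Ptprc, which marks leukocytes, had low-class probe sets only, at 2.11 and 1.24. The macrophage receptor gene Csf1r was at -0.08. Of 9 measured fibroblast markers 7 were above 0 (77.8%, beside the same 50.3%), with a median of 0.13. At least 2-fold higher was 1 and at least 2-fold lower was 1 (11.1% each, beside 8.46% and 7.25%). Col1a1 was the lowest at -3.41, and the highest, another collagen gene, was at 1.55. Of 5 measured endothelial markers 4 were above 0 (80%, beside 50.3%), with a median of 0.05. Pecam1 had only a low-class probe set, at -2.11. Their part in the interferon values was not tested. In bulk RNA, fewer cells of a type and less RNA per cell cannot be told apart.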

How the data were processed

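RNA of 1 sample per cell line was measured on oligonucleotide arrays of 45101 probe sets. Per the submitters' processing notes MAS5 was used, in a version not given in the sources used here. Taken as log2, the deposited values carry no stated log base; if it were natural every log2 ratio would be 1.44 times as large. The authors centred each probe set: its 2 values sum to 0 within 1e-06, and each column's median is 0. Direction follows the column labels. Both value columns were used.

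Apart from 64 controls, probe sets were named by the 2016 platform annotation: 34945 list 1 gene, 932 several and 9160 none here. Gene numbers gave current symbols for 34741 of them (GRCm38.p6); the genes described were matched on the platform symbol. Signal classes came from the single-precision rounding step: the sum of both values settled the class where it fell in a set range, and otherwise the largest step dividing both values gave a likely class. On simulated data, 96.7% of settled and 66.2% of other classes were right (100% and 53.0% of those called high, so high classes that are not settled are weak), while 8.35% of those counted as measured came from low signals. With settled classes that share was 0.0137%, so nearly all such cases had a class that was not settled, as Oas3 and Usp18 have. Simulated ratios had the same spread at every signal level, while 56.1% of the real low-class probe sets were past 2-fold. Among large ratios without a settled class the share may be higher, and it was not estimated. Genes were called by size at 2-fold; python 3.11.15 and pandas 2.3.3 were used. The precision is limited by the number of arrays, 1 per line. The SD used for genes and, divided by the root of their number, for medians is that between probe sets. Alternatives changed the probe sets kept, the gene summary, the centring, the threshold and the motif letters.

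The genes and lists were chosen with earlier results of these data known. Every gene of the list may be named; of the wider lists, those past 2-fold with the highest and lowest, and 7 markers. Ifnb1, Ifng, Ifna4, Socs2, Cxcl9 and Batf2, and the genes of wider families, were named after their values were seen.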

Additional observations from a re-analysis of the deposited data

How the results depend on the processing

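No paired analysis was possible because each line has 1 array and no comparison rests on a test. Of 54 recomputed counts, medians and motif shares, 38 stayed within the spread or within 1.5 times, 16 moved, and no gene past 2-fold changed sign. The counts of genes past 2-fold, 1 higher and 4 lower, became 0 and 1 (Ifitm3) in the high class, where 10 of 14 genes with 2 or more such probe sets had them on 1 side of 0, and 1 and 2 with settled classes only, where the last count was 5 of 8. At 1.5-fold they were 2 and 7 and at 4-fold 0 and 1; fewer probe sets or another threshold enter by construction. The type I median of -0.19 was -0.39 in the high class, -0.37 with settled classes and also with settled high classes alone, and 0.056 without chromosome 11; the last 2 were chosen after seeing the data, and the cause was not tested. The gamma median of -0.94 was -0.37 with Irf1 and Socs1, and -0.59 with the wider list. GAS matches fell from 28.6% of genes to 16.3% with the inner spacing 1 base shorter and to 16.3% with it 1 base longer. Read as natural logs, Ifitm3, Ifit3 and Gbp2 would be at -3.52, 2.30 and -2.14. Signal over background cannot be given, because the centring removed the levels.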
